A study of Mus musculus with 12 samples.

Results

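The genes of mitochondrial fusion, fission and mitophagy were examined in iWAT, the inguinal fat pad of mice in which beige adipocytes appear upon cold. The set holds 10 genes, picked by symbol from the 23420 genes of the count table: Mfn1, Mfn2 and Opa1 for fusion, Dnm1l, Mff and Fis1 for fission, and Pink1, Bnip3, Bnip3l and Fundc1 for mitophagy. All 10 of the 10 passed the filter on low counts, which left 15306 genes for the tests. Each of the 12 libraries came from the iWAT of a 10-week-old male C57BL/6 mouse, and each of the 4 groups held 3 mice. Both genotypes carried HIF2a loxP/loxP alleles. In WT mice no Cre was present, whereas HIF2α AKO mice also had Adipoq-Cre, so that the presence of Cre and the loss of HIF2α cannot be told apart. Adipoq-Cre acts in adipocytes, and the vascular, immune and stromal cells of the pad keep the gene. Mice were kept at thermoneutrality (TN, 30 °C) for 1 week or in cold (4 to 6 °C) for 3 days. Temperature and length of exposure thus cannot be told apart. No group was kept at another temperature, so a rise in cold and a fall at TN cannot be told apart either. Below, a gene that rose upon cold is one that was higher in cold than at TN.

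Mitochondria form a network that is joined by fusion and divided by fission. Fusion mixes the contents of neighbouring mitochondria, whereas fission yields the small units that can be moved, inherited or removed. Mitophagy is the removal of mitochondria by autophagosomes, which recognize them either by ubiquitin chains laid down through PINK1 and parkin or by receptor proteins of the outer membrane. In brown and beige adipocytes these processes are known to accompany the remodelling of mitochondria upon thermogenic activation and upon rewarming.

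The libraries held 22368316 to 35204631 gene counts, and values per mouse are given as CPM, the usual count scaled to library size, here after TMM normalization. The targeted gene was examined first. Epas1, which encodes HIF2α, had 373, 278 and 430.0 CPM in the TN WT mice and 289, 394 and 360.1 CPM in the TN mice labelled HIF2α AKO. In cold, its CPM was 576, 562 and 743 in WT and 986, 743 and 749 in the mice labelled HIF2α AKO. The labelled genotypes overlapped at TN, and in cold all 3 libraries labelled HIF2α AKO lay above those of WT, the closest by less than 1 CPM. The log2 difference (HIF2α AKO minus WT) was -0.05 at TN (95% interval -0.49 to 0.38) and 0.40 in cold (95% interval -0.037 to 0.83). Whole-gene counts do not resolve the floxed part of Epas1, so the genotype is given below as labelled. Skeletal muscle markers (12 genes) summed to 1713 CPM in cold HIF2α AKO replicate 1 and 1942 CPM in TN HIF2α AKO replicate 2, against 15.8 to 114 CPM in the other 10 libraries. Epithelial markers (6 genes, keratins, Epcam and Cdh1) summed to 200.05 CPM in TN WT replicate 3, against 2.95 to 10.3 CPM in the other 11 libraries. Results that rest on these 3 libraries are also given without them, and the part of muscle and epithelial transcripts in the results was not tested.

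The fusion genes rose upon cold in both labelled genotypes. Mfn2, an outer-membrane GTPase that tethers and fuses mitochondria and also links them to the endoplasmic reticulum, lies on chromosome 4 from 147873599 to 147904704 (GRCm38, minus strand). Its CPM in the 3 WT mice was 162, 137 and 219 at TN and 384, 376 and 448 in cold. In the mice labelled HIF2α AKO it was 147, 239.6 and 209 at TN and 591, 445 and 432 in cold. Every cold library was above every TN library, irrespective of genotype label. The log2 fold change (cold minus TN) was 1.22 (SE 0.22, adjusted p = 0.00394 by the quasi-likelihood test of edgeR, with p-values adjusted after Benjamini-Hochberg) in WT and 1.30 (SE 0.22, adjusted p = 0.00215 by the same edgeR test) in HIF2α AKO. Among all 15306 tested genes, the WT value of Mfn2 stood at percentile 95.2 and the HIF2α AKO value at percentile 95.8.

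Opa1 encodes the dynamin-like GTPase of the inner membrane, which fuses inner membranes and shapes cristae, on chromosome 16 from 29579334 to 29654884 (plus strand). Its CPM in WT was 83.7, 73.9 and 96.9 at TN and 158, 159 and 216 in cold. The mice labelled HIF2α AKO had 72.5, 104 and 92.7 CPM at TN and 251, 182 and 178 CPM in cold. The cold and TN libraries were again separated without overlap in both genotypes. The log2 fold change was 1.07 (SE 0.19, edgeR adjusted p = 0.00389) in WT and 1.18 (SE 0.19, edgeR adjusted p = 0.00177) in HIF2α AKO.

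Mfn1, the second mitofusin of the outer membrane, lies on chromosome 3 from 32529465 to 32579239 (plus strand) and had a smaller fitted change. Its CPM in WT was 39.1, 33.9 and 46.5 at TN against 56.1, 65.7 and 69.0 in cold. In the mice labelled HIF2α AKO it was 36.7, 45.0 and 37.8 at TN against 91.3, 64.8 and 64.0 in cold. These correspond to a log2 fold change of 0.67 (SE 0.16, edgeR adjusted p = 0.0159) in WT and 0.88 (SE 0.16, edgeR adjusted p = 0.00395) in HIF2α AKO. The WT call of Mfn1 was lost without cold WT replicate 3 (adjusted p = 0.0620 in edgeR), TN WT replicate 1 (0.0532) or TN WT replicate 2 (0.0742), with log2 fold changes between 0.55 and 0.66. The number of Mfn2 reads per Mfn1 read, which does not depend on the scaling of libraries, was 4.05 to 4.72 in TN WT and 5.72 to 6.85 in cold WT. In HIF2α AKO the same ratio was 3.99 to 5.53 at TN and 6.47 to 6.87 in cold, so that TN and cold libraries did not overlap in either genotype.

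**Figure D1:**
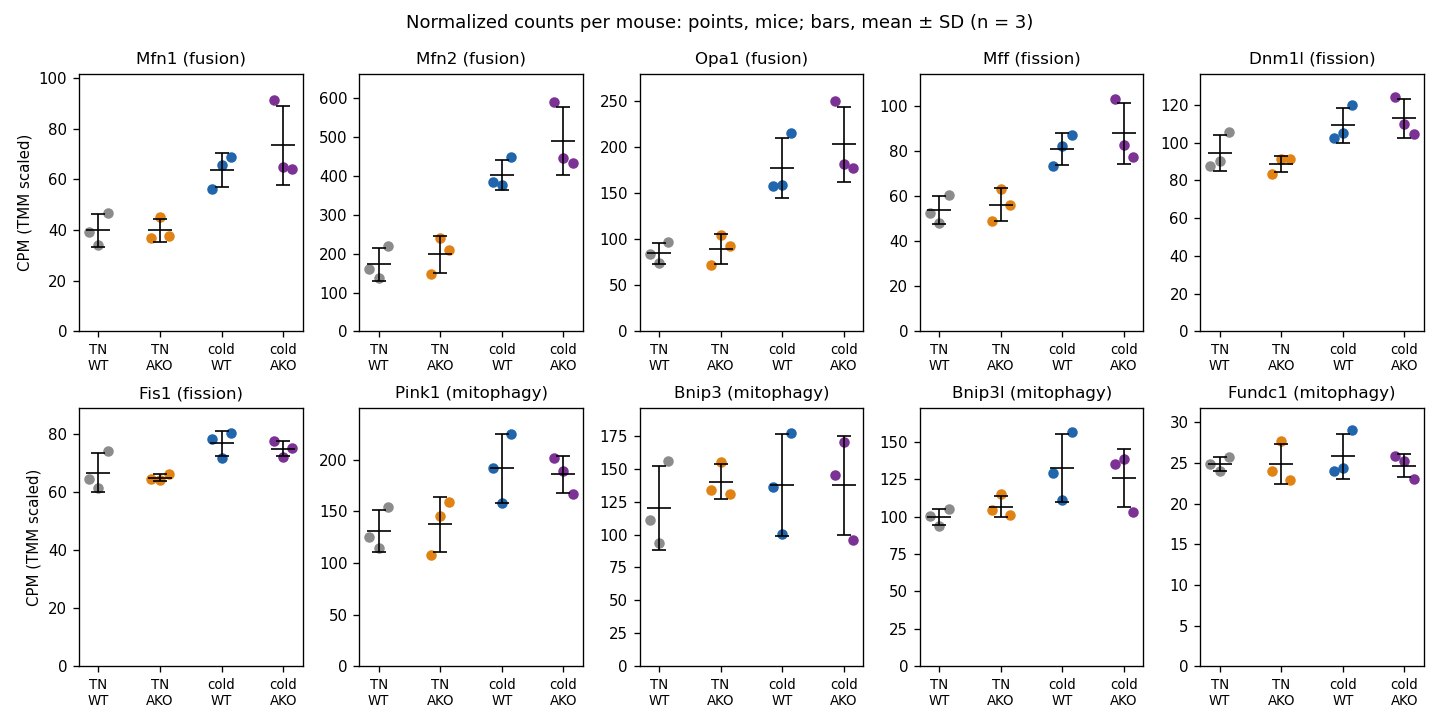
CPM after TMM scaling (vertical axes, starting at 0) of the 10 genes in WT and labelled HIF2α AKO mice at TN and in cold, with points for mice and bars for the mean ± SD (n = 3). The cold points of Mfn1, Mfn2, Opa1 and Mff lie above the TN points of both genotypes, whereas those of Bnip3 and Fundc1 overlap with them.

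Of the 3 fission genes, 1 rose in WT (Mff) and 2 in HIF2α AKO (Mff and Dnm1l), where 15.6% of all tested genes were called higher in each genotype. The call of Dnm1l depended on single libraries, and Mff had the largest fitted change of the 3. Mff is an outer-membrane protein that recruits the fission GTPase, and lies on chromosome 1 from 82724890 to 82752394 (plus strand). Its CPM in WT was 52.4, 48.1 and 60.3 at TN and 73.4, 82.3 and 87.3 in cold. In HIF2α AKO it was 49.0, 63.4 and 56.3 at TN and 103, 82.8 and 77.5 in cold. No cold library fell within the TN range in either genotype. The log2 fold change was 0.60 (SE 0.14, edgeR adjusted p = 0.0131) in WT and 0.64 (SE 0.14, edgeR adjusted p = 0.00808) in HIF2α AKO. Without cold WT replicate 3 or TN WT replicate 2, the WT value was 0.54 (edgeR adjusted p = 0.0534) and 0.51 (edgeR adjusted p = 0.0651).

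Dnm1l encodes DRP1, the dynamin-related GTPase that constricts mitochondria, on chromosome 16 from 16312230 to 16358959 (minus strand). In WT its CPM was 87.9, 90.3 and 106 at TN and 103, 105 and 119.8 in cold, so that the highest TN library lay within the cold range. The log2 fold change in WT was 0.21 (SE 0.10, edgeR adjusted p = 0.163). In the mice labelled HIF2α AKO, Dnm1l had 83.7, 91.6 and 91.1 CPM at TN and 124, 110.1 and 104 CPM in cold, and the groups did not overlap. Dnm1l rose there by a log2 fold change of 0.35 (SE 0.10, edgeR adjusted p = 0.0328). That call was lost when cold HIF2α AKO replicate 1 (0.27, edgeR adjusted p = 0.132), cold HIF2α AKO replicate 2 (0.37, 0.0626), TN HIF2α AKO replicate 1 (0.31, 0.120) or TN HIF2α AKO replicate 3 (0.37, 0.0694) was left out, and without both libraries that hold muscle transcripts (0.29, edgeR adjusted p = 0.149). The interaction of genotype and temperature for Dnm1l was 0.14 (95% interval -0.18 to 0.47), so a difference in its cold response between genotypes was not shown.

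Fis1, a small tail-anchored protein of the outer membrane linked to fission, lies on chromosome 5 from 136953275 to 136966234 (plus strand). Its CPM varied from 61.3 to 74.2 in TN WT, from 71.9 to 80.2 in cold WT, from 64.2 to 66.2 in TN HIF2α AKO and from 72.2 to 77.5 in cold HIF2α AKO. Fis1 did not pass the test in WT (0.20, SE 0.086, edgeR adjusted p = 0.105) or in HIF2α AKO (0.21, SE 0.086, edgeR adjusted p = 0.0914), although the cold HIF2α AKO libraries lay above the TN ones. Without TN WT replicate 3, the library with epithelial transcripts, Fis1 passed in WT (0.29, edgeR adjusted p = 0.0338). Reads were also set against Fis1 reads within each library, which does not depend on the scaling of libraries. Fis1 was chosen for its small cold difference, so that these ratios describe the fold changes above on another scale and add no test. Opa1 reads per Fis1 read were 1.21 to 1.31 in TN WT and 2.01 to 2.69 in cold WT. Mfn2 reads per Fis1 read were 2.24 to 2.96 in TN WT and 4.90 to 5.58 in cold WT, and 2.27 to 3.73 and 5.75 to 7.62 in TN and cold HIF2α AKO. By contrast, Dnm1l reads per Fis1 read were 1.36 to 1.47 in TN WT and 1.31 to 1.49 in cold WT, with overlapping ranges.

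**Figure D2:**
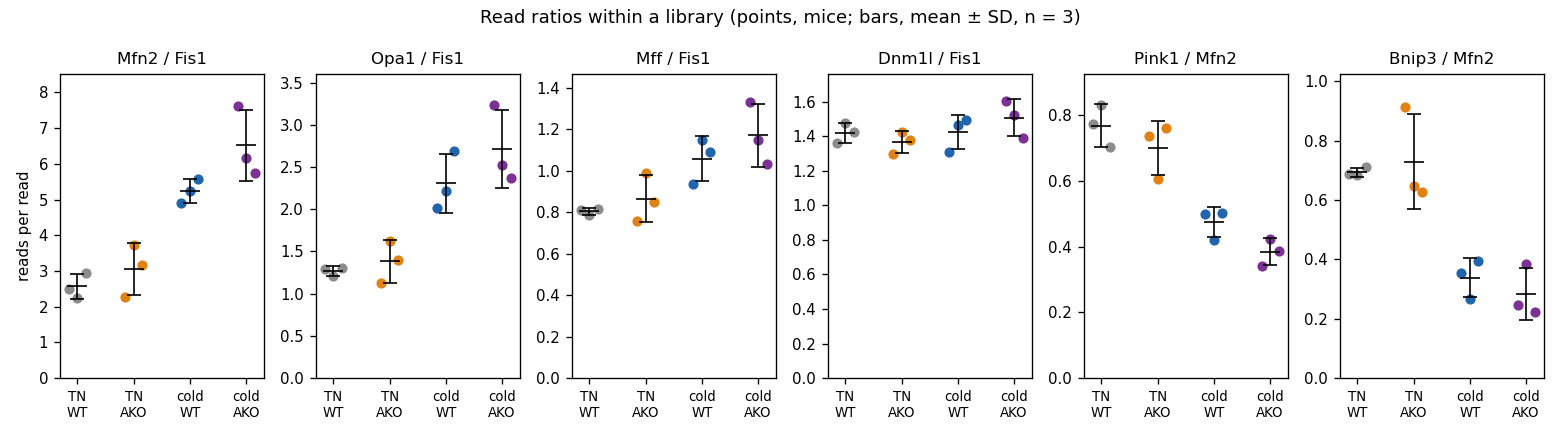
Ratio of the reads of a gene pair within each library (vertical axes, reads per read, starting at 0), by group, with points for mice and bars for the mean ± SD (n = 3). The ratios Mfn2 to Fis1 and Opa1 to Fis1 were higher in cold and Pink1 to Mfn2 and Bnip3 to Mfn2, whose denominator rose, were lower, whereas Dnm1l to Fis1 overlapped between TN and cold WT.

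Of the 4 mitophagy genes, 1 rose in WT (Pink1) and 0 in HIF2α AKO, against 15.6% of all tested genes called higher in each genotype. Pink1, the kinase that accumulates on depolarized mitochondria and phosphorylates ubiquitin to recruit parkin, lies on chromosome 4 from 138313409 to 138326307 (minus strand). In WT its CPM was 125, 114 and 154 at TN and 192, 158 and 225 in cold. The mice labelled HIF2α AKO had 108, 145 and 159 CPM at TN and 202, 189 and 167 CPM in cold. TN and cold libraries did not overlap in either genotype, with 154 against 158 CPM and 159 against 167 CPM as the closest libraries. Pink1 rose in WT (log2 fold change 0.55, SE 0.18, edgeR adjusted p = 0.0464), close to the limit of 0.05. In HIF2α AKO it did not pass (0.44, SE 0.18, edgeR adjusted p = 0.0835), and the interaction of -0.12 (95% interval -0.66 to 0.43) did not show a difference between the genotypes. The WT call was lost in 9 of the 12 fits that left out a library, with edgeR adjusted p-values up to 0.177 (without cold WT replicate 3). Those were all fits except the ones without cold WT replicate 2, TN HIF2α AKO replicate 1 and TN WT replicate 3. Without both libraries that hold muscle transcripts it was 0.55 (edgeR adjusted p = 0.0663).

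Bnip3 encodes a mitophagy receptor of the outer membrane that binds LC3 and is a known target of hypoxia-inducible factors, on chromosome 7 from 138890836 to 138909519 (minus strand). Its CPM in WT was 111, 93.8 and 156 at TN and 136, 100.1 and 177 in cold. In the mice labelled HIF2α AKO it was 134, 155 and 131 at TN and 145, 171 and 96.1 in cold. The libraries of a group differed more from each other than the group means did. The log2 fold change was 0.20 (95% interval -0.36 to 0.75) in WT and -0.03 (95% interval -0.59 to 0.53) in HIF2α AKO, with edgeR adjusted p-values of 0.584 and 0.940. The WT interval includes the fitted value of Mff, so a change of that size in Bnip3 is not excluded. Without TN WT replicate 3, its WT value was 0.43, which did not pass the test. Since Mfn2 rose, Bnip3 reads per Mfn2 read were fewer in cold, with 0.683 to 0.710 in TN WT and 0.266 to 0.395 in cold WT, which is no measure of a change in Bnip3.

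Bnip3l, which encodes the related receptor NIX on chromosome 14 from 66985239 to 67008877 (minus strand), had 100.2, 93.7 and 105 CPM in TN WT and 129, 111 and 156 CPM in cold WT. The groups did not overlap, but the log2 fold change of 0.41 (SE 0.14) had an edgeR adjusted p of 0.0586. It passed the limit without cold WT replicate 2 (0.49, edgeR adjusted p = 0.0392) and without cold HIF2α AKO replicate 3 (0.41, edgeR adjusted p = 0.0421). In HIF2α AKO, Bnip3l ranged from 101 to 115 CPM at TN and from 103 to 138 CPM in cold (0.24, SE 0.14, edgeR adjusted p = 0.219). Fundc1, a receptor known for hypoxia-induced mitophagy, lies on the X chromosome from 17556564 to 17572325 (minus strand) and was the least abundant of the 10 genes in CPM. It ranged from 24.0 to 25.7 CPM in TN WT, 24.1 to 29.0 in cold WT, 23.0 to 27.7 in TN HIF2α AKO and 23.0 to 25.8 in cold HIF2α AKO. Its log2 fold change of 0.058 in WT had a 95% interval from -0.17 to 0.28, and that of -0.011 in HIF2α AKO from -0.24 to 0.21. Fundc1 thus differed by less than the spread of the libraries, and these intervals do not reach the fitted values of the 3 fusion genes.

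**Figure D3:**
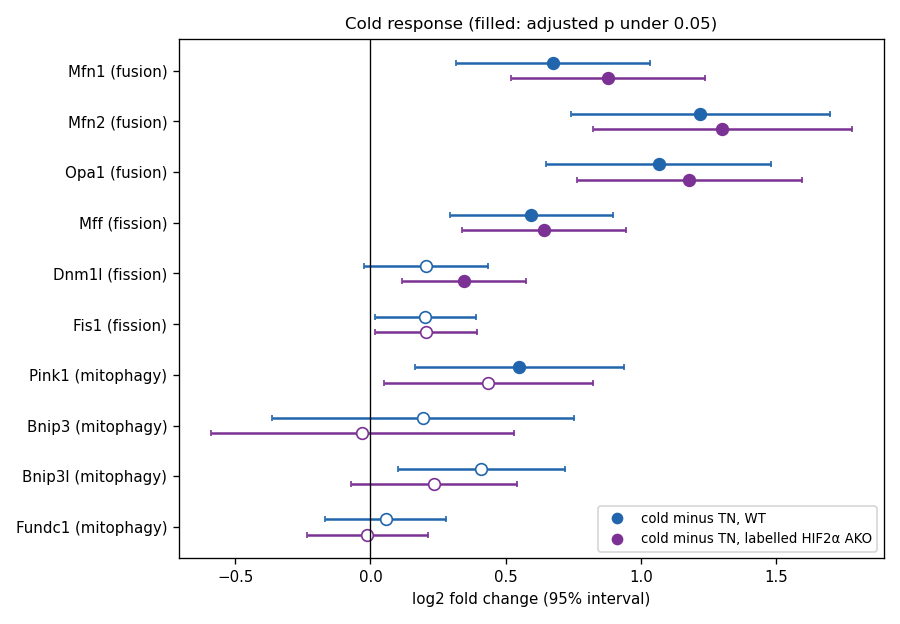
Log2 fold change of cold against TN (horizontal axis, with 95% intervals) for the 10 genes, grouped by role, in WT and in mice labelled HIF2α AKO, with filled points for an edgeR adjusted p under 0.05. The 3 fusion genes and Mff are filled in both genotypes, Pink1 only in the WT series and Dnm1l only in the HIF2α AKO series, and the interaction of these last genes did not pass the test.

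Counted over the set, 5 of 10 genes were higher in cold WT with an edgeR adjusted p under 0.05 (Mfn1, Mfn2, Opa1, Mff and Pink1) and 0 were lower. Of all 15306 genes tested in WT, 15.6% were called higher and 5.68% lower, 21.3% in either direction. In HIF2α AKO, 5 of 10 were higher (Mfn1, Mfn2, Opa1, Mff and Dnm1l) and 0 lower, where 15.6% of all tested genes were called higher and 11.5% lower, 27% in either direction. The groups did not overlap, with cold higher, for 6 genes in WT (22.7% of all tested genes) and for 7 in HIF2α AKO (24.9%). The median log2 fold change of the 10 genes was 0.48 in WT and 0.39 in HIF2α AKO, against -0.034 and -0.051 over all tested genes. The medians by role were 1.07 and 1.18 for fusion, 0.21 and 0.35 for fission, and 0.30 and 0.11 for mitophagy, in WT and HIF2α AKO. The number of WT calls depended on single mice. It was 2 without cold WT replicate 3 (Mfn2 and Opa1), 2 without TN WT replicate 2 and 3 without TN WT replicate 1, and between 4 and 6 in the other fits that left out a library, with 6 reached without cold WT replicate 2, where Bnip3l was added, and without TN WT replicate 3, where Fis1 was added and Mfn2 was at 1.43. Upper-quartile scaling lowered the median of all genes by 0.14 in WT (by 0.091 in HIF2α AKO), and with it 4 of 10 genes passed in either genotype, Pink1 being lost in WT and Dnm1l in HIF2α AKO. The exact permutation test (two-sided) of these small groups has 0.1 as its smallest p, and gave this value for every gene whose groups did not overlap.

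To place these differences beside those of other mitochondrial genes, 45 nuclear genes for OXPHOS subunits, the proteins of the respiratory chain and ATP synthase, were examined in the same fit. All 45 rose in both genotypes, with medians of 1.52 in WT and 1.65 in HIF2α AKO and ranges from 0.62 to 2.01 and from 0.56 to 2.17. Of these 45 genes, 38 had a larger fitted change than Mfn2 in WT and 40 in HIF2α AKO. For Opa1 the numbers were 42 and 41, and for Mfn1 44 and 44. All 45 exceeded each of Dnm1l, Fis1, Pink1, Bnip3, Bnip3l and Fundc1 in both genotypes. Per 1000 OXPHOS reads, Mfn2 had 21.3 to 24.3 reads in TN WT and 17.4 to 18.9 in cold WT, and 23.0 to 25.0 and 17.4 to 20.1 in HIF2α AKO. Opa1 went from 10.5 to 13.1 reads in TN WT to between 7.74 and 8.38 in cold WT. Bnip3 went from between 14.6 and 16.9 reads in TN WT to between 4.96 and 6.87 in cold WT. Fundc1 had 2.78 to 4.25 reads per 1000 OXPHOS reads in TN WT and 1.13 to 1.21 in cold WT. Per OXPHOS read, then, all 10 genes had fewer reads in the cold libraries than in the TN libraries of the same genotype, without overlap. The OXPHOS genes summed to 5647 to 9238 CPM in TN WT and 20154 to 25730 CPM in cold WT. A gene without any change therefore falls on this scale, which is no measure of a change in the gene itself. The share of all tested genes that do so was not counted.

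Other genes of the same pathways, taken from lists of pathway genes, were compared in the same way. Their counts stand against 15.6% of all tested genes called higher in each genotype. A list of 13 genes held mostly inner-membrane proteases, prohibitins and subunits of the MICOS complex that organizes cristae, with outer-membrane proteins such as Pld6. Of these 13 genes, 11 rose in WT and 10 in HIF2α AKO, and 0 fell. They include Immt, the core MICOS subunit, at 1.45 (SE 0.24) in WT and 1.53 (SE 0.24) in HIF2α AKO, with edgeR adjusted p-values of 0.00258 and 0.00148. The OPA1-cleaving proteases Oma1 and Yme1l1 did not pass the test (0.10 and 0.11 in WT). Among 9 other fission genes tested, 6 rose in each genotype. Mtfp1, a fission factor of the inner membrane, had the largest rise, from 6.48 ± 2.34 (SD, n = 3) to 28.9 ± 1.68 CPM (SD, n = 3) in WT, a log2 fold change of 2.16 (SE 0.31, edgeR adjusted p = 0.00151), and of 2.17 (SE 0.31, edgeR adjusted p = 0.000952) in HIF2α AKO. March5, an outer-membrane ubiquitin ligase that acts on fission and fusion proteins, rose by 1.30 (SE 0.20) in WT and 1.33 (SE 0.20) in HIF2α AKO, with edgeR adjusted p-values of 0.00216 and 0.00138.

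Of 12 genes tested around PINK1 and parkin, 7 rose in WT and 5 in HIF2α AKO. Beside this and the counts below, 15.6% of all tested genes were called higher in each genotype. The share called lower was 5.68% in WT and 11.5% in HIF2α AKO. Optn, an autophagy adaptor that binds ubiquitin on damaged mitochondria, rose by 1.04 (SE 0.27, edgeR adjusted p = 0.0206) in WT and 1.15 (SE 0.27, edgeR adjusted p = 0.0115) in HIF2α AKO. Rhot2, a GTPase for mitochondrial transport and a parkin substrate, rose by 0.92 (SE 0.13) and 1.21 (SE 0.13), with edgeR adjusted p-values of 0.00117 and 0.000251. Parkin itself, listed as Park2, was at a low level in all libraries, between 1.30 and 4.78 CPM on 38 to 119 reads, and did not pass the test in WT (0.76, SE 0.26, edgeR adjusted p = 0.0555) or HIF2α AKO (0.53, SE 0.25, edgeR adjusted p = 0.13). Of 9 other receptors, 5 rose in each genotype, among them Bcl2l13 with 1.00 (SE 0.17) in WT and 0.90 (SE 0.17) in HIF2α AKO. Autophagosome genes, which serve all kinds of autophagy, were called higher in 8 of 19 cases in WT and 4 of 19 in HIF2α AKO, with medians of 0.32 and 0.19. The difference between these counts was not tested, and 0 of the 19 passed the interaction test. HIF target genes were called higher in 5 and lower in 1 of 14 cases in WT, and higher in 6 and lower in 1 in HIF2α AKO. Pgk1, a glycolytic enzyme, had the largest rise among them (1.60, SE 0.18, in WT), whereas Kdm3a, a histone demethylase, fell by 0.34 (SE 0.096) in WT. Of 8 regulators of mitochondrial biogenesis, 4 rose in WT and 6 rose and 1 fell in HIF2α AKO, with Ppargc1a, the coactivator PGC-1α, at 2.56 (SE 0.34) and 2.95 (SE 0.34).

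**Figure D4:**
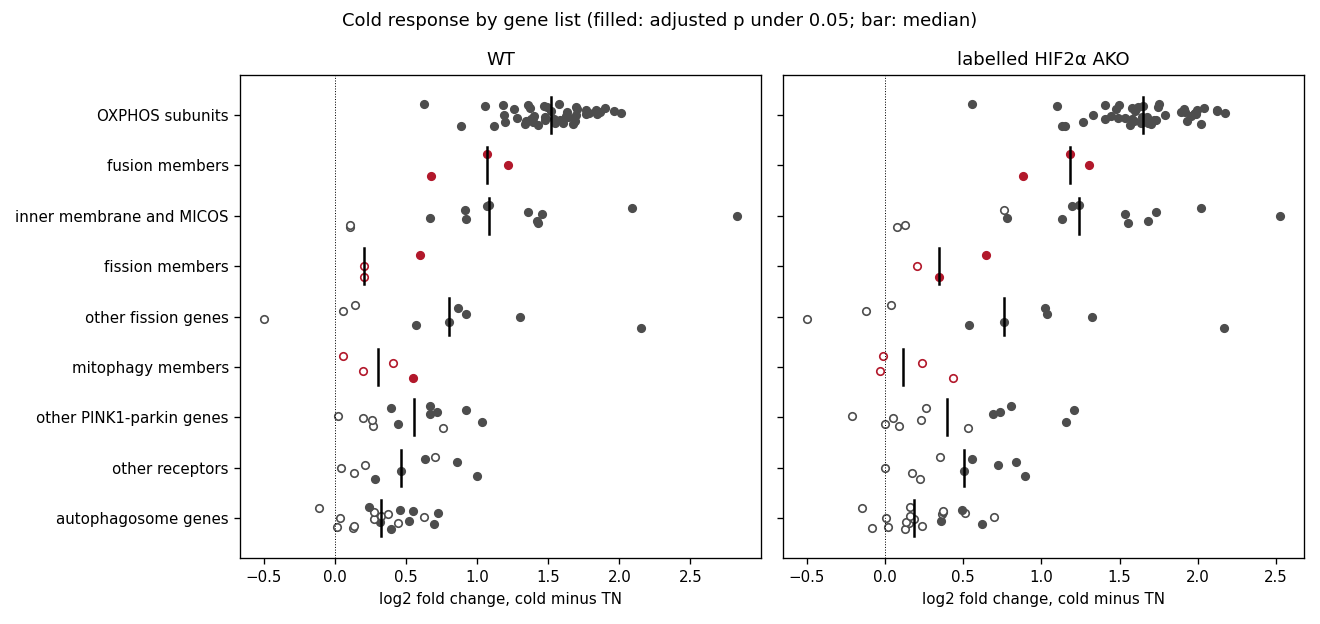
Log2 fold change of cold against TN (horizontal axis) for single genes (points) of each list (rows), in WT on the left and in mice labelled HIF2α AKO on the right, with filled points for an edgeR adjusted p under 0.05 and a bar at the median. The 3 fusion genes lie among the genes of the list named inner membrane and MICOS and below most of the 45 OXPHOS subunits. The 4 mitophagy genes of the set lie below the 3 fusion genes, whereas Optn, Rhot2 and Bcl2l13 of the other mitophagy lists lie above Mfn1.

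The promoters of the set were read from RefSeq (GRCm38.p6, from 250 bases before to 50 after a start site), which lists 14 promoters for 9 of the 10 genes. They were searched on both strands for ACGTG and GCGTG, the cores of hypoxia response elements, for CACGTG (an E-box, which overlaps ACGTG), for AAGGTCA (bound by ERRα) and for TGACGTCA (a cAMP response element). Of all 32851 promoters of this length, 19.6% hold ACGTG, 32.4% GCGTG, 7.15% CACGTG, 4.72% AAGGTCA and 1.79% TGACGTCA. Among the 9 genes, ACGTG was found for Mfn2 and Bnip3, GCGTG for Mfn2, Dnm1l, Fis1, Pink1 and Bnip3, CACGTG for Bnip3, and AAGGTCA and TGACGTCA for 0. A gene was counted when any of its promoters matched, and some genes have several. These counts per gene therefore cannot be set directly against the shares per promoter. The windows of Mfn2 and Bnip3 are shown because Mfn2 had the largest difference upon cold and Bnip3 a small one, with the motif in capitals and the strand of the gene read from 5′ to 3′. The Mfn2 window lies at chr4:147904684-147904712 on the minus strand, where the motif begins 2 bases before the second listed start site, and the Bnip3 window at chr7:138909597-138909626 on the minus strand, where it begins 108 bases before the start site.
Mfn2 (ACGTG): cgccggctagtgACGTGttgggtgtgatg
Bnip3 (CACGTG): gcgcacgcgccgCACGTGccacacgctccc
These matches describe letters in the sequence and do not show that a factor binds there.

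Summed markers of several cell types also differed between TN and cold. In bulk tissue, fewer cells of a type and less RNA per cell cannot be told apart. Adipocyte markers (8 genes, none at 0 in any library) summed to 5099 to 12353 CPM in TN WT and 15848 to 29675 CPM in cold WT, and to 7654 to 13900 CPM in TN and 19082 to 23260.4 CPM in cold HIF2α AKO. Of these 8 genes, 3 were called higher in cold WT and 1 in cold HIF2α AKO. For comparison with this and the counts below, 15.6% of all tested genes were called higher in each genotype. The share called lower was 5.68% in WT and 11.5% in HIF2α AKO. Lymphocyte markers (8 genes) summed to 1527 to 2322 CPM in TN WT and 871 to 1455 CPM in cold WT. Of these genes, 1 of 8 fell in WT and 3 of 8 in HIF2α AKO. They include the pan-leukocyte gene Ptprc, at 325 to 961 CPM over all libraries, so the sum is not specific to lymphocytes. Markers of progenitors and fibroblasts (6 genes) summed to 5396 to 6059 CPM in TN WT and 2984 to 3854 CPM in cold WT, with 2 of 6 lower in WT and 4 of 6 in HIF2α AKO. All 6 thermogenic markers rose in both genotypes, with medians of 6.98 and 6.54, including Ucp1, the uncoupling protein of thermogenic fat, from 0.432 to 2638 CPM on average in WT. Of the other markers, 0 of 12 for skeletal muscle passed in either genotype, 0 and 1 (lower) of 7 for macrophages, 0 and 1 (higher) of 6 for endothelium, and 1 (lower) and 0 of 6 for epithelium, whose TN WT sums were 7.26, 10.3 and 200.05 CPM.

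Within groups, libraries with high or low levels of the set were often high or low in adipocyte markers. TN WT replicate 3, the library with epithelial transcripts, had the highest CPM of its group for 10 of 10 genes and the highest adipocyte marker sum of the group (12353 CPM), and cold WT replicate 3 did so for 10 of 10 genes with 29675 CPM. TN WT replicate 2 had the lowest CPM for 9 of 10 genes and the lowest adipocyte marker sum of all libraries (5099 CPM). Cold HIF2α AKO replicate 3 was lowest for 9 of 10 genes, with 19082 CPM of adipocyte markers. The share of all tested genes that were highest or lowest in each of these libraries was not counted. These counts thus show no trait particular to the set. Per 1000 adipocyte marker reads, Mfn2 had 17.2 to 26.9 reads in TN WT and 15.1 to 23.7 in cold WT, ranges that overlap, and 17.2 to 19.2 in TN HIF2α AKO and 20.0 to 25.4 in cold HIF2α AKO, which do not. Opa1 also overlapped on this scale, with 7.85 to 14.5 reads in TN WT and 7.27 to 10.1 in cold WT. Bnip3 had 11.8 to 18.4 reads in TN WT and 5.96 to 6.45 in cold WT, without overlap. In HIF2α AKO it had 11.2 to 17.5 and 5.03 to 7.67, also without overlap. Dnm1l, Fis1, Pink1, Bnip3l and Fundc1 were likewise lower in cold on this scale, without overlap in either genotype. A gene without any change also falls on this scale, and the share of all tested genes that do so was not counted. Since the adipocyte marker sum was larger in cold, these ratios are no measure of a change in the genes themselves. The sum was also uneven over its genes. Over all libraries, Fabp4 ranged from 1960 to 16668 CPM, Cidec from 442 to 4924 and Adipoq from 899 to 2467. The sum is therefore not taken as the adipocyte content of a library. The part of the marker differences in the results of this set was not tested.

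Between the labelled genotypes, none of the 10 genes differed at either temperature in edgeR's quasi-likelihood test. At TN, 0 of 10 passed, against 0.00653% of all tested genes (1 gene), and all edgeR adjusted p-values were at or above 0.999. In cold, 0 of 10 passed, against 0.00653% (1 gene), and the groups overlapped for all 10 genes (7.69% of all tested genes did not overlap at TN and 7.53% in cold). Without adjustment, 446 genes (2.91%) had a p under 0.05 at TN and 451 (2.95%) in cold, and 0 of the 10 were among them. At looser limits in cold, with p under 0.15 before adjustment and a log2 difference of more than 0.2 in size, 8.98% of all tested genes passed and 0 of the 10.

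The largest fitted genotype difference in cold was that of Mfn2, at 489 ± 88.3 CPM (SD, n = 3) in HIF2α AKO against 403 ± 39.4 CPM (SD, n = 3) in WT. The log2 difference (HIF2α AKO minus WT) was 0.28, with a 95% interval from -0.19 to 0.75 and 2 of 3 HIF2α AKO mice within the WT range. Opa1 (0.20, 95% interval -0.21 to 0.61) and Mfn1 (0.21, 95% interval -0.15 to 0.56) had the same sign. In each of these 3 genes the highest cold library was HIF2α AKO replicate 1, which held the muscle transcripts. This library also had the highest sums of OXPHOS genes (32187 CPM) and of thermogenic markers (8459 CPM) of all libraries. The part of each in these differences was not tested. Without that library the cold differences were 0.12 for Mfn2, 0.020 for Opa1 and 0.018 for Mfn1, so that their size rested on it. Of the fission genes, Mff was at 0.12 (95% interval -0.19 to 0.42), Dnm1l at 0.049 (-0.18 to 0.28) and Fis1 at -0.036 (-0.22 to 0.15). All 4 mitophagy genes had fitted values below 0 in cold, from -0.0038 for Bnip3 to -0.076 for Bnip3l, each with an interval that spans 0. The signs of Bnip3, Bnip3l, Pink1 and Fundc1 turned without cold WT replicate 3, the highest WT library for each (to 0.22, 0.061, 0.086 and 0.026), and those of Bnip3, Bnip3l and Pink1 without cold HIF2α AKO replicate 3. At TN the 10 values ranged from -0.092 for Dnm1l to 0.22 for Bnip3. The sign of Mfn1, Opa1, Mff and Fundc1 turned without TN HIF2α AKO replicate 2, the other library with muscle transcripts. That library also had the highest adipocyte marker sum of the TN libraries (13900 CPM). Without TN WT replicate 3, the library with epithelial transcripts, the TN difference of Mfn2 was 0.41 in place of 0.20 and that of Bnip3 0.45 in place of 0.22, and 0 of 10 genes passed.

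**Figure D5:**
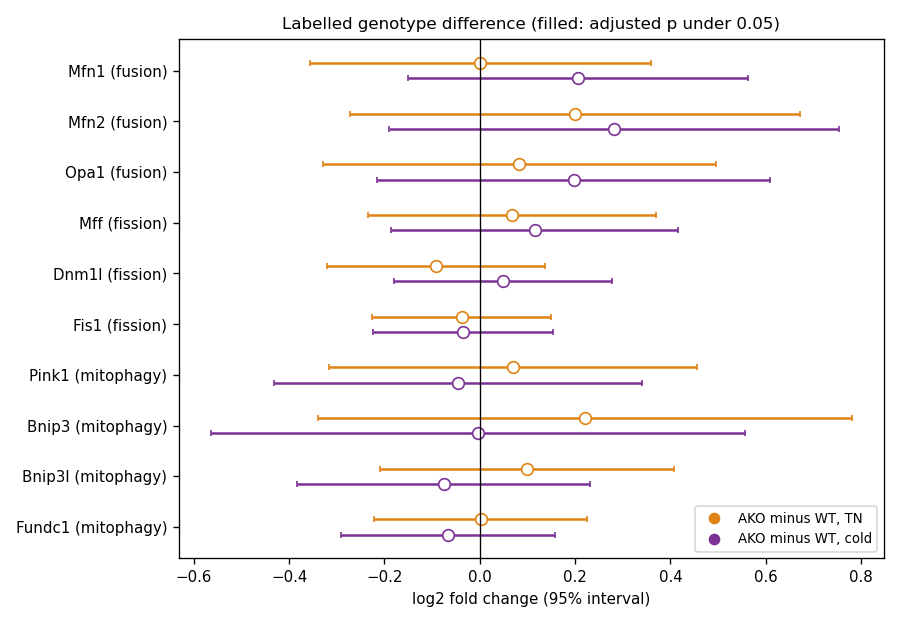
Log2 difference between the labelled genotypes (HIF2α AKO minus WT, horizontal axis, with 95% intervals) for the 10 genes at TN and in cold, where open points mark an edgeR adjusted p of 0.05 or more. All 20 intervals span 0.

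The interaction of genotype and temperature asked whether the cold response differed between the labelled genotypes. By edgeR, 0 of 10 genes and 0% of all tested genes passed after adjustment, while 327 tested genes (2.14%) and 0 of the 10 had an unadjusted p under 0.05. The values (cold response in HIF2α AKO minus that in WT) ranged from -0.22 for Bnip3 (95% interval -1.02 to 0.57) to 0.20 for Mfn1 (95% interval -0.30 to 0.71). For Mfn2 the interaction was 0.081, with an interval from -0.59 to 0.75, and for Fis1 0.0025, with an interval from -0.26 to 0.27. A p that misses the limit does not show that the genotypes respond alike, and the intervals of Mfn2 and Bnip3 reach 0.75 and -1.02 on the log2 scale.

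Levels of different genes were compared per kilobase of exon length, taken over all annotated exons of a gene. This length can exceed that of the expressed transcript, and the order depends on it. It was 9757 bases for Mff and 2353 for Fundc1, whereas the mean CPM in TN WT was 53.6 for Mff, 39.8 for Mfn1 and 24.8 for Fundc1. In TN WT the order from high to low was Bnip3 (53.1 ± 14.2 CPM per kb, SD, n = 3), Pink1 (49.0 ± 7.70), Fis1 (38.9 ± 3.91), Mfn2 (33.3 ± 8.11), Bnip3l (25.8 ± 1.44), Dnm1l (18.2 ± 1.87), Opa1 (10.8 ± 1.47), Fundc1 (10.6 ± 0.361), Mfn1 (6.52 ± 1.04) and Mff (5.50 ± 0.636). Neighbours that did not differ by more than the larger of their SDs were Bnip3 and Pink1, Fis1 and Mfn2, Mfn2 and Bnip3l, Opa1 and Fundc1, and Mfn1 and Mff. In cold WT, Mfn2 came first with 77.5 ± 7.58 CPM per kb (SD, n = 3), ahead of Pink1 (71.7 ± 12.6) and Bnip3 (60.7 ± 17.0), although these 3 were within their spread. In cold HIF2α AKO, Mfn2 had 94.2 ± 17.0 CPM per kb (SD, n = 3), more than its SD above Pink1 (69.5 ± 6.72). Opa1 moved ahead of Dnm1l in both cold groups, within their spread, and Mff was the lowest in all 4 groups.

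The genes whose profile over the 12 libraries was most like that of each member were found by the root mean square difference of centred log2 CPM, over 11660 genes with a mean of at least 5 CPM. For Mfn2 these were Uqcc (0.062), an assembly factor of complex III, and Ecsit (0.070), an assembly factor of complex I. For Opa1 they were Coa5 (0.071), a cytochrome c oxidase assembly factor, and Mrpl30 (0.073), a mitochondrial ribosomal protein, whereas Mff was closest to Vdac3 (0.051), an outer-membrane channel, and Arl8b (0.054). Mfn1 was closest to Slc20a2 (0.065) and Slc25a15 (0.066), and Pink1 to Fbxw8 (0.071) and Ufd1l (0.078). Bnip3 had the least similar neighbours, Dlc1 (0.11) and Ppp1r9a (0.12). Those of the other genes were Ppia (0.034) and Drg1 (0.045) for Dnm1l, Fbxw11 (0.040) and Psmb1 (0.043) for Fis1, Fbxw2 (0.061) and Sec62 (0.067) for Bnip3l, and Tm9sf2 (0.041) and Rsrc1 (0.048) for Fundc1. The nearest member of the set to Mfn2 was Opa1 (0.13), which ranked 62 by likeness. The root mean square of a gene's own profile, the value a flat profile would give, was 0.69 for Mfn2 and 0.096 for Fundc1. All of these genes share the same 12 libraries, so that the likeness is a description of these samples.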

How the data were processed

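RNA of iWAT from 12 mice was sequenced. Per the labels and the submitters' processing notes, the authors trimmed reads with Trim Galore 0.4.4, aligned them with STAR 2.6.1d to GRCm38 and counted reads per gene with HTSeq 0.13.5. The deposited values are whole read counts without normalization, at 22368316 to 35204631 counts per library. The gene annotation and strand setting are not given in the sources used here, so reads of Mfn2, Mff, Dnm1l and Bnip3 and of the genes annotated on the opposite strand within them cannot be told apart. Reads that HTSeq tallied as not assigned to a gene, for any reason (21.9 to 27.0% per library), were left out. The per-library tables held the same counts, and no replicates were duplicates.

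Counts were filtered with filterByExpr (minimum count 10, minimum total 15), TMM-scaled and fitted with edgeR 4.0.16 (R 4.3.3) in 1 quasi-likelihood model of 4 groups, with Benjamini-Hochberg adjustment over 15306 genes and a limit of 0.05. Labels do not say whether mice came from separate litters or cages, so p-values measure only the spread between these mice. Log2 values used a prior count of 2. Exon lengths and positions came from GENCODE on GRCm38. On simulated counts for cold against TN in WT (15306 genes), edgeR recovered 4 of 62 genes changed by 0.5, 43 of 70 changed by 1 and 64 of 68 changed by 2 on the log2 scale. The simulation held fewer changed genes than the data, with 116 calls against 3259. The adjusted limit was therefore stricter in it, and these rates do not give the recovery of small changes in the data. The members and gene lists were chosen with earlier results of these data known. Beside the 10 members, the genes named are Epas1, Hif1a, Ucp1, Ppargc1a, up to 2 genes per list with the largest rise and fall in cold WT, and the 2 nearest profiles of each member. Immt, Oma1, Yme1l1 and Park2 were named after their values were seen. Hif1a, the paralogue of Epas1, had a log2 fold change (cold minus TN) of 0.31 in WT and 0.46 in HIF2α AKO. Alternatives were other scalings, no filter, DESeq2 1.42.0, limma 3.58.1 (voom), fits on fewer libraries, a replicate block, each library left out in turn and, chosen after seeing the data, both libraries with muscle transcripts left out.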

Additional observations from a re-analysis of the deposited data

How the results depend on the processing

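The rises of Mfn2 and Opa1 upon cold passed the limit in both genotypes under every alternative run, including each library left out in turn. Calls of Pink1 in WT and Dnm1l in HIF2α AKO did not: upper-quartile scaling gave 0.42 (edgeR adjusted p = 0.0709) for Pink1 and 0.26 (0.0589) for Dnm1l, and Pink1 was also lost without the filter (edgeR adjusted p = 0.0673) and in the fit on 6 libraries (0.0834). DESeq2 additionally called Bnip3l in WT (adjusted p = 0.0354) and Fis1 in HIF2α AKO (0.0354), and limma with voom called Dnm1l (0.0456) and Fis1 (0.0284) in WT. The number of members called upon cold lay between 4 and 7 in these fits. Upper-quartile scaling moved the share of higher among all called genes from 73.3% to 42.6% in WT and from 57.5% to 42.4% in HIF2α AKO. The cause was not tested.

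Over all tested genes, the fit on 6 libraries called 1752 in cold against TN in WT, and the fit without both libraries with muscle transcripts called 1514 in HIF2α AKO. Leaving out single libraries gave 1381 to 3722 genes and 2 to 6 members in WT, and 1613 to 4853 genes and 4 to 5 members in HIF2α AKO. The lower counts of genes in WT were those without cold WT replicate 3 (1469), TN WT replicate 1 (1810) and TN WT replicate 2 (1381), and in HIF2α AKO those without cold replicate 1 (1613), TN replicate 1 (1735) and TN replicate 3 (2450). Between genotypes at TN, DESeq2 called 8 genes, voom 2 and the fit on 6 libraries 0. In cold, DESeq2 called 7, or 13 on the cold libraries alone, voom 2 and the fit on 6 libraries 0, and 1374 passed the looser limits. No member was among the calls between genotypes in any of these fits.

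The labels do not say whether replicate numbers pair the mice, and the main fit did not treat them as pairs. Of 18 pairs of same-numbered libraries, 5 had correlated deviations over 0.1 (range -0.43 to 0.39). These correlations cannot exclude that same-numbered mice shared a litter or cage. With the replicate number as a block, 2561 genes and 4 members passed in WT and 3313 genes and 4 members in HIF2α AKO, the adjusted p of Pink1 in WT being 0.0563 and that of Dnm1l in HIF2α AKO 0.0511 in edgeR. Bnip3 between genotypes in cold was 0.021 with the block.

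Signs turned only for values that had not passed any test. For cold against TN in WT, Fundc1 was -0.079 with upper-quartile scaling and -0.0042 with voom. In HIF2α AKO, Fundc1 was 0.010 with DESeq2 size factors, 0.010 without the filter, 0.0092 with DESeq2, 0.043 with voom, 0.0088 on 6 libraries and 0.040 without the muscle libraries, and Bnip3 was 0.068 with voom and 0.0094 without the muscle libraries. Between genotypes at TN, Mfn1 was -0.00038 with DESeq2 size factors, -0.042 with upper-quartile scaling, -0.019 without the filter, -0.0039 with voom, -0.011 on 6 libraries and -0.095 without the muscle libraries. Fundc1 was -0.043, -0.020, -0.047, -0.012 and -0.081 under the last 5 of these settings. Voom gave 0.0035 for Dnm1l and 0.0094 for Fis1, and leaving out the muscle libraries -0.038 for Opa1 and -0.027 for Mff. Between genotypes in cold, Bnip3 was 0.019 with DESeq2 size factors, 0.031 without the filter, 0.020 with DESeq2, 0.21 with voom and 0.0064 with DESeq2 on the cold libraries. Voom gave 0.042 for Pink1, 0.042 for Bnip3l and 0.00025 for Fundc1, and leaving out the muscle libraries -0.027 for Dnm1l and -0.016 for Mff. For the interaction, voom gave -0.027 for Mfn2, -0.043 for Fis1 and 0.048 for Fundc1, and leaving out the muscle libraries -0.032 for Fis1.

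With single libraries left out, signs turned for the following genes, given as ranges. For cold against TN they were Bnip3 (-0.026 to 0.43) and Fundc1 (-0.034 to 0.11) in WT, and Bnip3 (-0.22 to 0.17) and Fundc1 (-0.065 to 0.072) in HIF2α AKO. Between genotypes at TN they were Fis1 (-0.095 to 0.045), Fundc1 (-0.080 to 0.057), Mff (-0.026 to 0.16), Mfn1 (-0.10 to 0.13), Opa1 (-0.037 to 0.22) and Pink1 (-0.047 to 0.22). In cold they were Bnip3 (-0.19 to 0.22), Bnip3l (-0.15 to 0.061), Dnm1l (-0.027 to 0.12), Fundc1 (-0.12 to 0.026), Mff (-0.016 to 0.20) and Pink1 (-0.14 to 0.086). For the interaction they were Fis1 (-0.081 to 0.074), Fundc1 (-0.12 to 0.023), Mff (-0.085 to 0.14), Mfn2 (-0.13 to 0.24), Opa1 (-0.064 to 0.28) and Pink1 (-0.26 to 0.015).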
